A study of Homo sapiens with 8 samples.

Results

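The genes described here mark neuroectoderm, the embryonic tissue that gives rise to the brain and spinal cord, and neural crest, the migratory population that leaves its border. They are 36 genes chosen by name, and every probe set annotated to exactly 1 of them was taken, which gave 80 of the 54675 probe sets on the array. A probe set is the group of short oligonucleotides with which the array reads 1 transcript. The cells came from the established line H1, derived from a human embryo, and shared their dishes with mouse embryonic feeder fibroblasts stopped by irradiation. Light scatter in a cell sorter (forward and side) separated a small from a large fraction, each collected in 4 sorts that the submitters call independent. Each sort was hybridised to an array of its own, so the comparison is of 4 small with 4 large arrays, and no genotype or treatment differs between them. Whether the sorts came from separate cultures is not stated, so p-values measure the spread between sorts.

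Embryonic stem cells express some of these genes while still pluripotent, among them OTX2, ZIC2 and SOX3. When signals of the TGF-beta family are withdrawn the cells can turn towards neuroectoderm, and PAX6 is among the first factors to appear in that conversion in human cells. At the border of the neural plate, PAX3, TFAP2A and FOXD3 specify crest cells, which then express SOX10 and EDNRB. The comparison sets the levels of such genes in small stem cells against those in large ones.

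None of the members passed the unpaired test between small and large cells, although EDNRB and PAX6 passed under some other settings. Both passed in a fit that took equal replicate numbers as pairs (the replicate block). PAX6 was high on all 4 small arrays and on large replicate 1, and low on large replicates 2 to 4. EDNRB, the endothelin receptor of migrating crest cells, was lower on every small array than on any large array with each of its 3 probe sets. TWIST1 and SOX3 were higher on every small array than on any large array, by 0.79 ± 0.29 and 0.47 ± 0.20 on the log2 scale (moderated SE, n = 4 per group). The small and large arrays of every other tested member overlapped.

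Values are normalized log2 intensities, and a difference of 1 is a change of 2-fold. Probe sets entered the test if their mean over the 8 arrays was above 3.62 on this scale, a cut at the 40th percentile of all probe sets. This left 39 member probe sets for 26 genes. Members without a tested probe set were ZIC1, LHX5, SIX3, SIX6, RAX, NEUROG1, NEUROG2, PAX3, TFAP2B and NGFR. STMN2, LHX2 and ELAVL3 passed this cut only through their small arrays and OTX1 only through its large arrays, so that a difference in that direction was built into their selection. The 75th percentile of deposited intensity spanned 2.52-fold between arrays, so the arrays were normalized to each other. Labelled RNA was loaded in equal amounts, so fewer cells of a type and less RNA per cell cannot be told apart. NANOG and SOX2, which mark pluripotent cells, were read between 10.58 and 10.77 and between 10.23 and 10.41 on small arrays, against 10.65 to 10.81 and 10.27 to 10.56 on large arrays.

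Promoter sequences are shown for SOX3 and EDNRB, the members with an entry in the RefSeq table (GRCh38.p14) whose small and large arrays did not overlap. TWIST1 was not among the 26 members with an entry. Each window runs from 250 bases before to 50 bases after an annotated start, written 5′ to 3′. Capitals mark matches to CANNTG, the E-box that basic helix-loop-helix factors such as TWIST1 and the neurogenins bind. It was searched on both strands, where it reads the same. The array reads transcripts and measured nothing at these sequences.
SOX3, chrX:140505020-140505319, strand -: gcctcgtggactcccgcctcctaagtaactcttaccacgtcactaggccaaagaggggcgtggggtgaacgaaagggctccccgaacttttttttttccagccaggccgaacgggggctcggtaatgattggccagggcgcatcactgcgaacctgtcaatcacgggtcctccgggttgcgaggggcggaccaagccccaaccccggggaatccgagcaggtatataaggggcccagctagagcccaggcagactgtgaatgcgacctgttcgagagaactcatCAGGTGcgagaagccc
EDNRB upstream start, chr13:77919633-77919932, strand -: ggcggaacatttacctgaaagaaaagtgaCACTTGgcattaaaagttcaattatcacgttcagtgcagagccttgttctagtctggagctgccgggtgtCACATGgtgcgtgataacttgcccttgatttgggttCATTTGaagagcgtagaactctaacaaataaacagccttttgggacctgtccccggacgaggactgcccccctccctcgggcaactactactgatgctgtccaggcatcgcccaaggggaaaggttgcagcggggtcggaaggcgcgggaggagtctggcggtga
EDNRB downstream start, chr13:77918782-77919081, strand -: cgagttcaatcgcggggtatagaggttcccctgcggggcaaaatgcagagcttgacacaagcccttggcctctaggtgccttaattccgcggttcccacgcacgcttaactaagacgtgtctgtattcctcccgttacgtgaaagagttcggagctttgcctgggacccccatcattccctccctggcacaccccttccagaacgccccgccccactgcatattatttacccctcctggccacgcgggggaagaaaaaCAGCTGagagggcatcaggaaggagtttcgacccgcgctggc
The SOX3 window held 1 match, the upstream EDNRB window 3 and the downstream EDNRB window 1. At least 1 match was present in 68.7% of all 35116 promoters of the same length, so a match is common. The SOX3 window held 20 CpG dinucleotides, and the EDNRB windows held 14 upstream and 19 downstream, beside a median of 14 over all promoters.

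Over all genes, 293 of 14726 (1.99%) passed at an adjusted p under 0.05 in limma, an array test that borrows variance across genes, with Benjamini-Hochberg adjustment. Among all genes 0.299% were higher and 1.69% lower in small cells. Of the 26 tested members 0 passed, and 0 of their 39 probe sets passed where 1.5% of all probe sets did. At an unadjusted p under 0.05, 7 of 26 members passed, beside 16.5% of all genes. Of these 6 were higher and 1 was lower, beside 8.51% and 8.0% of all genes. The members higher at that level were PAX6, TWIST1, STMN2, SOX3, OTX2 and DCX, and EDNRB was the lower one. PAX6, STMN2 and OTX1, 3 of 26 members, differed by at least 1, beside 2.97% of all genes, but STMN2 and OTX1 passed the filter through 1 group only, so nothing is read from that count. STMN2 is also among the 6 higher members. The median difference was 0.15 over the 26 members and 0.05 over all tested genes, and 19 of the 26 were above 0 where 56.0% of all genes were. Both values include STMN2, LHX2 and ELAVL3, which passed the filter only through their small arrays, and OTX1, which passed only through its large arrays. On the deposited scaling 13 of 26 were above 0, and the medians were 0.03 over members and -0.05 over all genes.

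**Figure D1:**
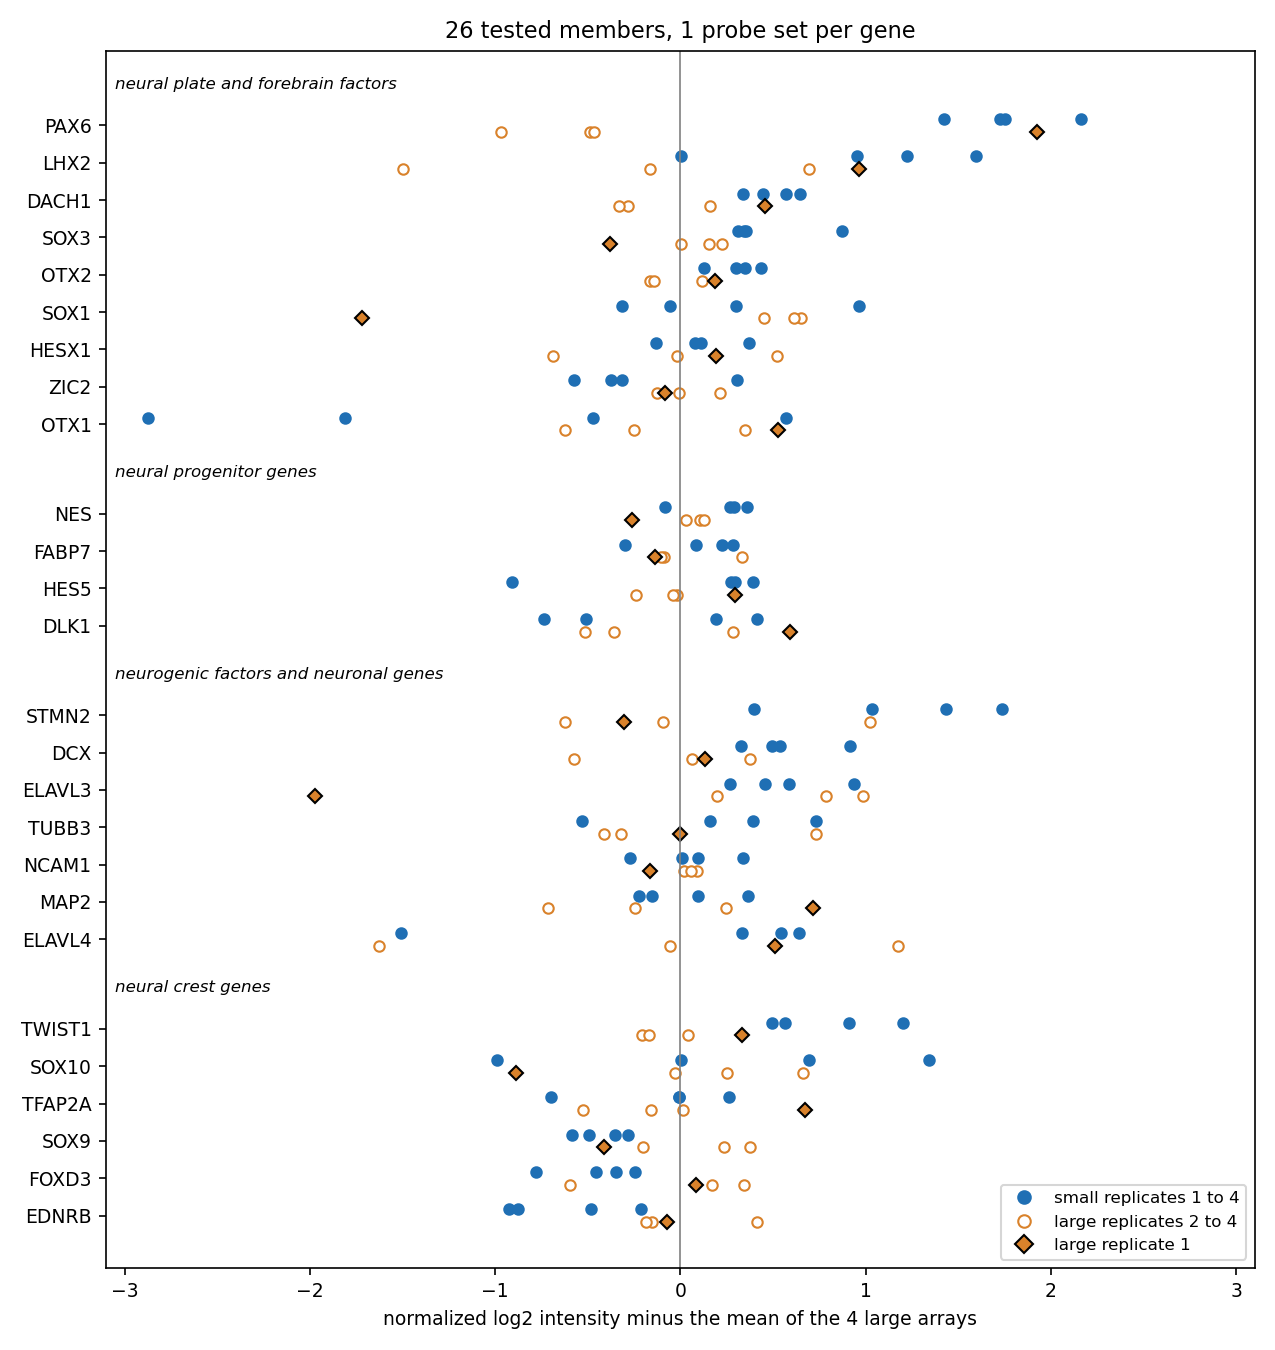
Normalized log2 intensity of the 26 tested members on each array, given relative to the mean of the 4 large arrays, 1 probe set per gene and genes grouped by role. Filled circles are small arrays, open circles large replicates 2 to 4 and diamonds large replicate 1, which lies with the small arrays for PAX6 and far below all other arrays for SOX1 and ELAVL3.

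The neural plate and forebrain factors, of which 9 of 14 were tested, had a median difference of 0.31. None passed, 3 were higher at an unadjusted p under 0.05 and 0 were lower, beside 8.51% and 8.0% of all genes. PAX6, a paired-domain factor of neuroectoderm and eye, was at 5.87, 5.46, 5.43 and 5.13 on small replicates 1 to 4, against 5.63, 3.22, 2.74 and 3.24 on large replicates 1 to 4. The deposited intensities were 51.3, 30.6, 61.8 and 27.5 units in small cells, against 31.9, 7.47, 6.49 and 8.87 units in large cells. The groups overlapped through large replicate 1 alone, and large replicates 2 to 4 were all below the detection cut of 3.62. The mean of the 4 large arrays, 3.71, was above that cut only through large replicate 1.

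The PAX6 difference was 1.77 ± 0.52 (SE, n = 4 per group, 95% interval 0.64 to 2.89), a 3.40-fold higher level in small cells, with an adjusted p of 0.106 in limma. Without large replicate 1 it was 2.44 ± 0.35 with an adjusted p of 0.00779, in a limma fit that called 3.76% of 14717 genes, 1.33% as higher and 2.43% as lower. That array was singled out because of its PAX6 value, so this fit is a description of what 1 array carries and no independent test. With each of the 8 arrays left out in turn the difference ran from 1.42 to 2.44 and the gene passed in 1 of 8 limma fits, with adjusted p between 0.00779 and 0.261. It also passed under 2 further alternatives with all 8 arrays, the replicate block (1.77, adjusted p = 0.0306 in limma) and array weights (2.15, adjusted p = 0.0144 in limma). The difference with array weights moved towards the one without large replicate 1. That pass is therefore not read as separate from the fit without that array. PAX6 passed under no other alternative, and it was not tested with a stricter filter or without _x_at and _s_at probe sets. Among the other scalings, its adjusted p in limma was 0.0802 with cyclic loess and 0.236 with median centring. The size of the difference depended on the constant added before log2, at 1.86 with a pseudocount of 1 and 1.01 with 16. Over all settings it ran from 1.01 to 2.44. A second PAX6 probe set was below the cut on average, at 3.72, 4.52, 3.24 and 1.48 in small cells, against 3.23, 3.49, 3.44 and 3.80 in large cells, and did not separate the fractions.

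Large replicate 1 also stood apart in RNA quality. The mean log2 difference between the 3 prime and 5 prime control probe sets of GAPDH and ACTB was 2.44, 1.94, 2.66 and 2.42 on small replicates 1 to 4, against 2.91, 1.85, 1.83 and 1.89 on large replicates 1 to 4. The arrays with high PAX6 were the 5 arrays with the larger 3 prime excess, small replicate 2 by little. All small arrays had a larger excess than large replicates 2 to 4. The part of RNA quality in the PAX6 difference, or in that of any other member, was not tested. Large replicate 1 had the lowest 75th percentile of deposited intensity, 42.0 units, where the other arrays had 45.5 to 106 units.

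Other members put the same array on either side. Large replicate 1 differed from the mean of large replicates 2 to 4 by at least 1 for 5 of 26 members, PAX6 at 2.56, LHX2 at 1.29, SOX10 at -1.19, SOX1 at -2.29 and ELAVL3 at -2.63. The same held for 1422 of 14726 genes, or 9.66%, and for 3 of 26 members at most on any other array. It was high for PAX6 and LHX2 and low for the other 3.

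**Figure D2:**
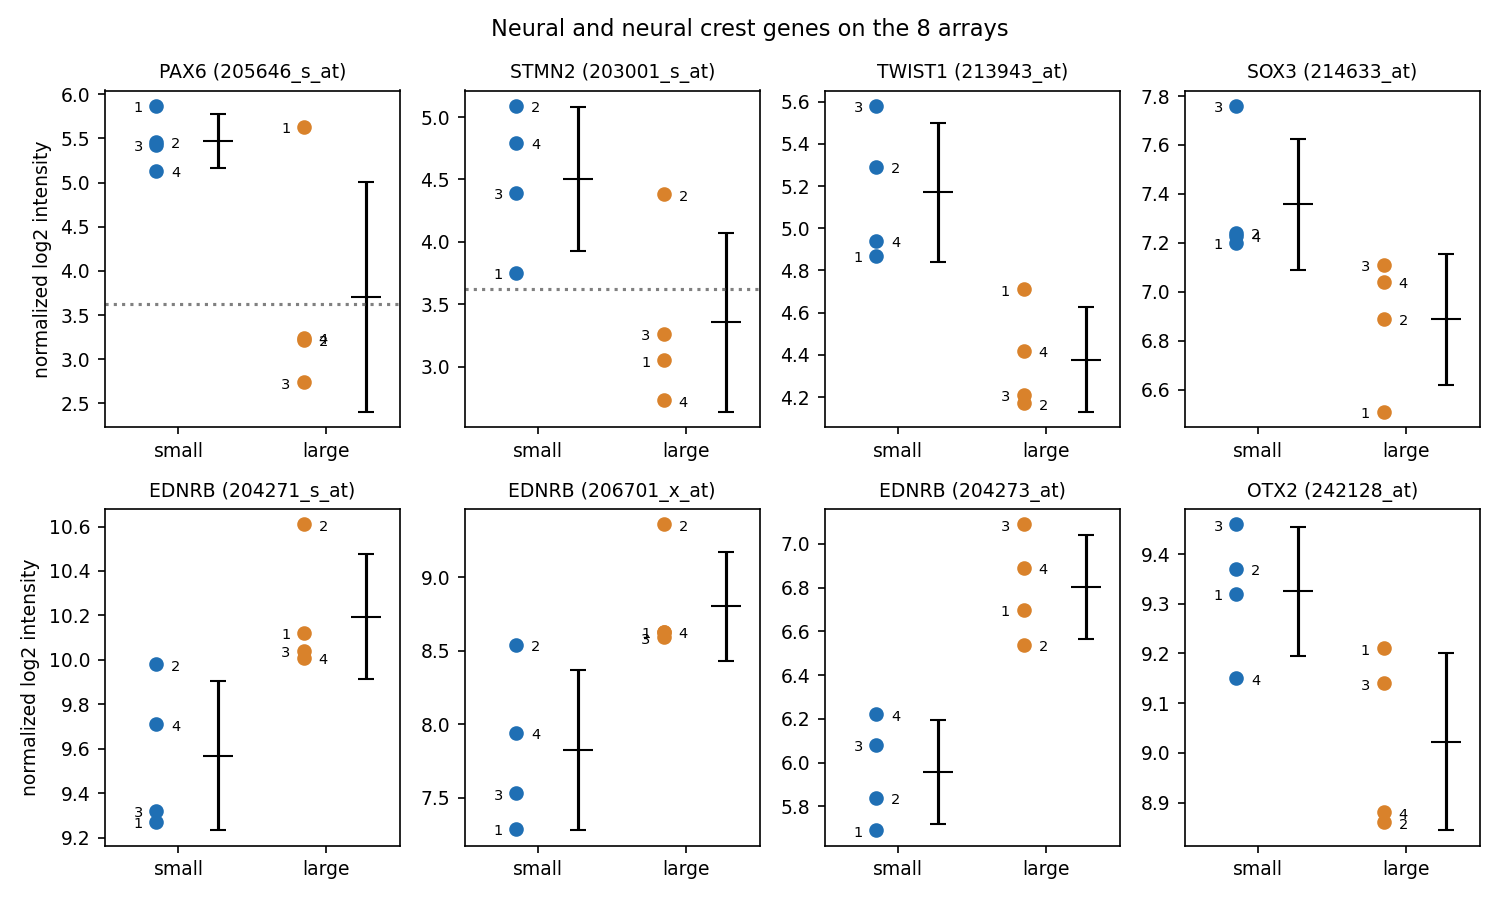
Normalized log2 intensity of 8 probe sets on each array, with replicate numbers beside the points, and the mean and SD (n = 4) as bars. The dotted line is the cut of 3.62 for testing; the groups do not overlap for TWIST1, SOX3 and the 3 EDNRB probe sets, and they overlap through 1 large array for PAX6.

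SOX3, a SOXB1 factor of neural progenitors on the X chromosome, was at 7.20, 7.24, 7.76 and 7.23 on small arrays, against 6.51, 6.89, 7.11 and 7.04 on large arrays. Every small value was above every large value, but small replicate 3 stood above the other small arrays. The difference was 0.47 ± 0.20 (SE, n = 4 per group, 95% interval 0.05 to 0.89) with an adjusted p of 0.25 in limma. OTX2, which maintains the anterior epiblast and later patterns forebrain and midbrain, was at 9.32, 9.37, 9.46 and 9.15 on small arrays, against 9.21, 8.86, 9.14 and 8.88 on large arrays. Only small replicate 4 fell within the large range, and the difference was 0.31 ± 0.14 with an adjusted p of 0.293 in limma. A second OTX2 probe set had a difference of 0.27 ± 0.26.

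LHX2, a LIM-homeodomain factor of forebrain and eye field, was at 4.21, 3.26, 4.48 and 4.85 on small arrays, against 4.22, 3.95, 3.09 and 1.76 on large arrays. Its groups overlapped, and its difference of 0.94 ± 0.59 did not pass (adjusted p = 0.463 in limma). OTX1, the OTX2 paralog of the developing cortex, was at 4.02, 5.06, 2.68 and 1.62 on small arrays, against 5.02, 3.87, 4.24 and 4.84 on large arrays. The small arrays alone spanned more than 3 log2 units, and the difference of -1.15 ± 0.65 did not pass (adjusted p = 0.410 in limma). Both genes lay close to the cut for testing.

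SOX1, the SOXB1 factor that marks committed neuroectoderm, was at 4.59, 4.23, 5.25 and 3.97 on small arrays, against 2.57, 4.94, 4.90 and 4.74 on large arrays. Its difference was 0.22 ± 0.52, with an interval from -0.89 to 1.34, and it was -0.36 ± 0.36 without large replicate 1. Its second tested probe set had a difference of 0.57 ± 0.49. PAX6 and SOX1, which are used together to mark neuroectoderm, thus differed on large replicate 1, where PAX6 was high and SOX1 was low on its brighter probe set.

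ZIC2, a zinc-finger factor already present in pluripotent cells, was at 9.43 to 10.31 on small arrays, against 9.88 to 10.22 on large arrays. The groups overlapped, and the difference was -0.24 ± 0.17 with an interval from -0.61 to 0.14. HESX1, a repressor of the anterior epiblast and forebrain, differed by 0.11 ± 0.25. DACH1, a nuclear cofactor of the eye and brain regulatory network, differed by 0.50 ± 0.33 with 1 tested probe set and by 0.63 ± 0.42 with the other. Of the factors below the cut, LHX5, RAX and SIX6 had 1 probe set each, and ZIC1 and SIX3 had 3 each.

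**Figure D3:**
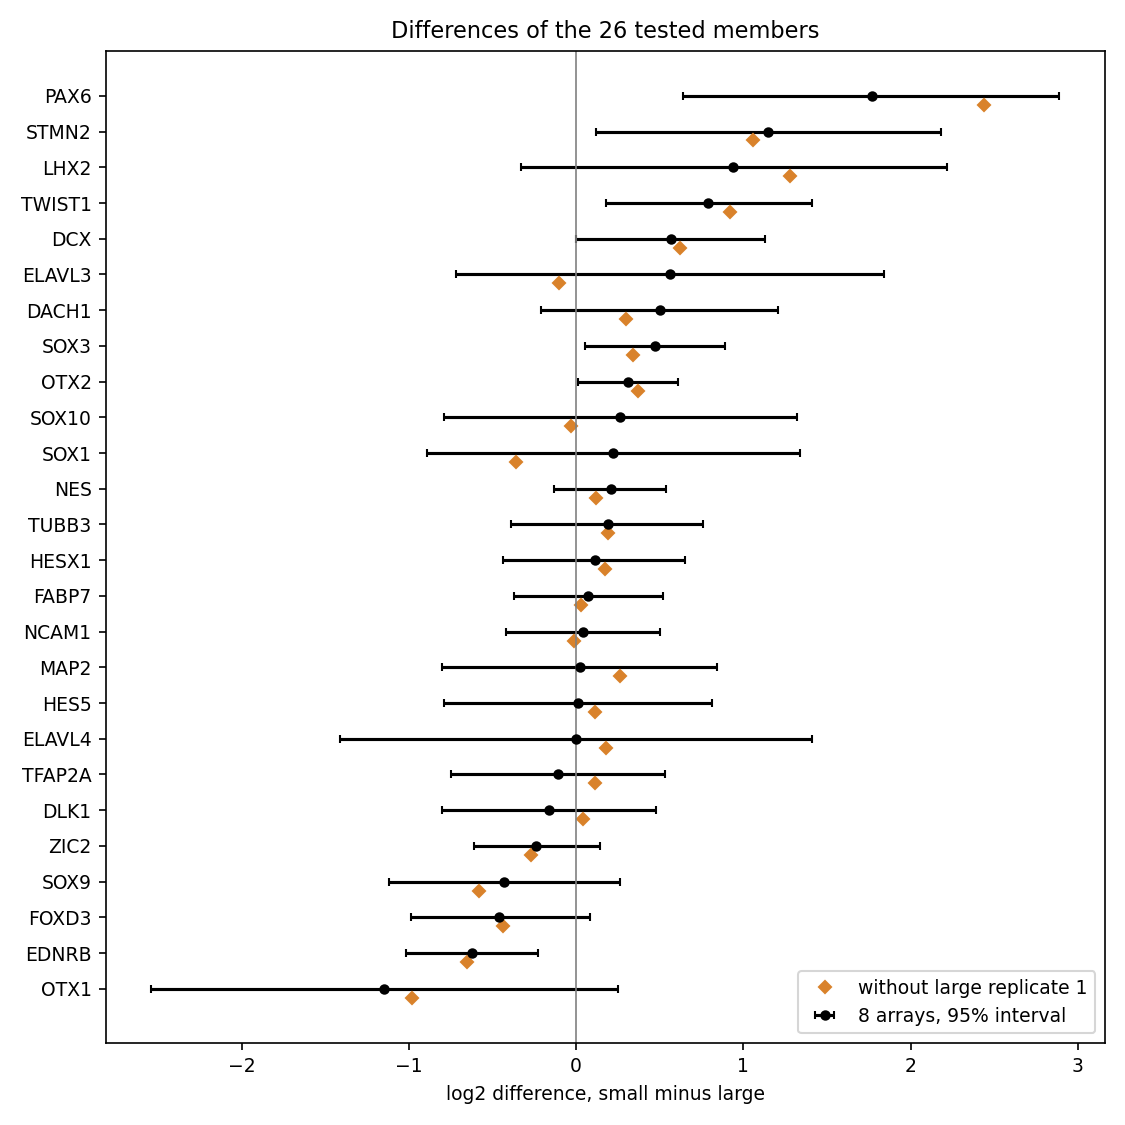
Log2 difference, small minus large, of the 26 tested members with 95% intervals from the fit of 8 arrays (black), and the same difference without large replicate 1 (orange diamonds). PAX6 is at 2.44 without that array and at 1.77 with it, while SOX1 and ELAVL3 lie below 0 without it.

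The neural progenitor genes were all 4 tested and stayed near the median of all genes, with a median difference of 0.04. NES encodes nestin, an intermediate filament of neural progenitors, and was at 8.83, 8.92, 8.48 and 8.85 on small arrays, against 8.30, 8.67, 8.69 and 8.59 on large arrays. Its difference of 0.21 ± 0.16 had an interval from -0.13 to 0.54. FABP7, the brain fatty acid-binding protein of radial glia, was at 6.10, 6.30, 5.72 and 6.24 on small arrays, against 5.88, 6.35, 5.93 and 5.91 on large arrays. Large replicate 2 was the highest of all 8 arrays, and the difference was 0.07 ± 0.21. HES5, a NOTCH target that keeps progenitors undifferentiated, was at 4.74, 4.64, 4.62 and 3.44 on small arrays, against 4.64, 4.33, 4.31 and 4.11 on large arrays. Small replicate 4 was the lowest of all 8 arrays, and the difference was 0.01 ± 0.37. DLK1, an imprinted NOTCH-like surface protein, was at 7.22, 7.0, 6.07 and 6.30 on small arrays, against 7.40, 7.09, 6.45 and 6.29 on large arrays. Replicates 1 and 2 of both fractions were high and replicates 3 and 4 low for DLK1, and the difference between fractions was -0.16 ± 0.30.

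Of the 9 neurogenic factors and neuronal genes, 7 were tested, with a median difference of 0.19. None passed, 2 were higher at an unadjusted p under 0.05 and 0 were lower, beside 8.51% and 8.0% of all genes. STMN2, which is among the 2, and ELAVL3 passed the filter only through their small arrays, so nothing is read from this count or median. STMN2, a microtubule regulator of growing axons, was at 3.75, 5.09, 4.39 and 4.79 on small arrays, against 3.05, 4.38, 3.26 and 2.73 on large arrays. Large replicate 2 lay within the small range and the other large arrays below it. The difference was 1.15 ± 0.48 (SE, n = 4 per group, 95% interval 0.12 to 2.18) with an adjusted p of 0.247 in limma. A second STMN2 probe set was at most 2.90 on any array and was not tested.

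DCX encodes doublecortin, a microtubule-associated protein of migrating neurons. It was at 5.33, 5.54, 5.50 and 5.92 on small arrays, against 5.14, 4.43, 5.07 and 5.38 on large arrays. Only small replicate 1 fell within the large range, and the difference was 0.57 ± 0.26 with an adjusted p of 0.301 in limma. The other tested DCX probe set differed by 0.36 ± 0.40.

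TUBB3, the neuronal beta-tubulin, was at 10.78, 11.35, 10.09 and 11.01 on small arrays, against 10.62, 11.35, 10.30 and 10.21 on large arrays. The fractions overlapped over most of their range, and the difference was 0.19 ± 0.27. Both tested TUBB3 probe sets end in _x_at, which marks oligonucleotides that can also bind other transcripts, and tubulin genes are alike in sequence. ELAVL3 and ELAVL4 encode neuronal RNA-binding proteins. ELAVL3 was at 4.20, 3.88, 4.07 and 4.55 on small arrays, against 1.64, 3.81, 4.40 and 4.60 on large arrays. Its difference was 0.56 ± 0.59 on all arrays and -0.10 ± 0.39 without large replicate 1. ELAVL4 was at 4.32, 4.42, 2.27 and 4.11 on small arrays, against 4.29, 4.95, 2.15 and 3.72 on large arrays. It was low on replicate 3 of both fractions, and the difference was 0.00 ± 0.66.

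NCAM1, the neural cell adhesion molecule, had 4 tested probe sets that did not go the same way. Their differences were 0.65 ± 0.43, 0.04 ± 0.22, -0.40 ± 0.47 and -0.65 ± 0.33, and none passed. MAP2, a microtubule-associated protein of dendrites, differed by 0.02 ± 0.38. NEUROG1 and NEUROG2, the proneural factors that start neurogenesis, had 1 probe set each and neither was tested.

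Of the 9 neural crest genes, 6 were tested, with a median difference of -0.27. None passed, 1 was higher and 1 lower at an unadjusted p under 0.05, beside 8.51% and 8.0% of all genes. EDNRB had the smallest p of the members, and all 3 of its probe sets went the same way. On the first probe set, the one with the highest mean, it was at 9.27, 9.98, 9.32 and 9.71 on small arrays, against 10.12, 10.61, 10.04 and 10.01 on large arrays. On the second it was at 7.29, 8.54, 7.53 and 7.94 on small arrays, against 8.63, 9.36, 8.59 and 8.63 on large arrays. On the third it was at 5.69, 5.84, 6.08 and 6.22 on small arrays, against 6.70, 6.54, 7.09 and 6.89 on large arrays. All small values were below all large values on each of the 3, which read the same RNA and are not replicates of each other.

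The EDNRB differences were -0.62 ± 0.18, -0.98 ± 0.26 and -0.85 ± 0.20 in the same order (SE, n = 4 per group). The first is a 1.54-fold lower level in small cells, with an interval from -1.02 to -0.23 and an adjusted p of 0.104 over genes in limma. Over all tested probe sets the 3 had adjusted p of 0.117, 0.0849 and 0.0584 in limma. With 1 array left out the first ran from -0.75 to -0.49 and passed in 0 of 8 limma fits (adjusted p from 0.0815 to 0.271). EDNRB passed in limma when its 3 probe sets were averaged (-0.82, adjusted p = 0.034). It also passed in limma when probe sets ending in _x_at or _s_at were left out (-0.85, adjusted p = 0.0489). With the replicate block it passed in limma as well (-0.62, adjusted p = 0.0141). EDNRB passed under no other scaling. It was at -0.61 with cyclic loess, -0.48 with 75th percentile scaling and -0.47 with median centring (adjusted p = 0.102, 0.188 and 0.452 in limma).

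TWIST1, a basic helix-loop-helix factor of migrating crest and mesenchyme, was at 4.87, 5.29, 5.58 and 4.94 on small arrays, against 4.71, 4.17, 4.21 and 4.42 on large arrays. Every small value was above every large value, and large replicate 1 was the highest large array. The difference was 0.79 ± 0.29 (SE, n = 4 per group, 95% interval 0.18 to 1.41), a 1.73-fold higher level in small cells, with an adjusted p of 0.182 in limma. It ran from 0.64 to 0.92 with 1 array left out.

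FOXD3, a repressor that also maintains pluripotent cells, was at 5.58, 5.05, 5.48 and 5.37 on small arrays, against 5.91, 5.23, 6.17 and 6.00 on large arrays. Large replicate 2 alone lay in the small range, and the difference was -0.46 ± 0.25 with an interval from -0.99 to 0.08. SOX9, a SOXE factor of crest and cartilage, differed by -0.43 ± 0.32 and, on a second probe set, by -0.51 ± 0.44. TFAP2A, an AP-2 factor of crest and surface ectoderm, differed by -0.11 ± 0.30, and SOX10, the SOXE factor that drives glial and pigment fates, by 0.26 ± 0.49. SOX10 varied between 3.35 and 5.68 on small arrays, against 3.45 to 5.0 on large arrays. PAX3 had 4 probe sets, TFAP2B 3 and NGFR, the crest surface marker p75, 1, and none was tested.

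No overlap between the 4 small and the 4 large arrays was found for 3 of 26 members, TWIST1 and SOX3 above and EDNRB below, where 10% of all genes had none, 4.94% above and 5.07% below. For member probe sets it was 5 of 39, beside 9.34% of all probe sets. The count of 3 was near that background. It was also a matter of scaling: on the deposited scaling and with median centring only TWIST1 was without overlap among the members, beside 1.3% and 6.76% of all genes. With scaling to the 75th percentile only SOX3 was, beside 10.2% of all genes.

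Other genes of the same lineages were listed by function. Of 40 other neural plate and progenitor genes 18 were tested, 0 were higher and 1 lower, with a median difference of 0.01. The lower gene was PROM1, the surface protein prominin, at -0.67 ± 0.15 (adjusted p = 0.0383 in limma). VIM, which encodes vimentin, differed by 1.12 ± 0.30 and the homeobox gene IRX3 by 0.85 ± 0.25, and neither passed (adjusted p = 0.0723 and 0.106 in limma). Of 26 other neuronal genes 23 were tested and 0 passed, with a median of 0.13. The synaptic vesicle sensor SYT1 was at -0.71 ± 0.22, the growth cone protein GAP43 at 0.52 ± 0.17 and the neurofilament NEFM at 0.35 ± 0.18. Of 24 other crest and Schwann lineage genes 13 were tested and 0 passed, with a median of 0.08. The cadherin CDH11 was at 0.73 ± 0.22, the neuregulin receptor ERBB3 at -0.95 ± 0.29 and the helix-loop-helix inhibitor ID2 at 0.36 ± 0.27.

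**Figure D4:**
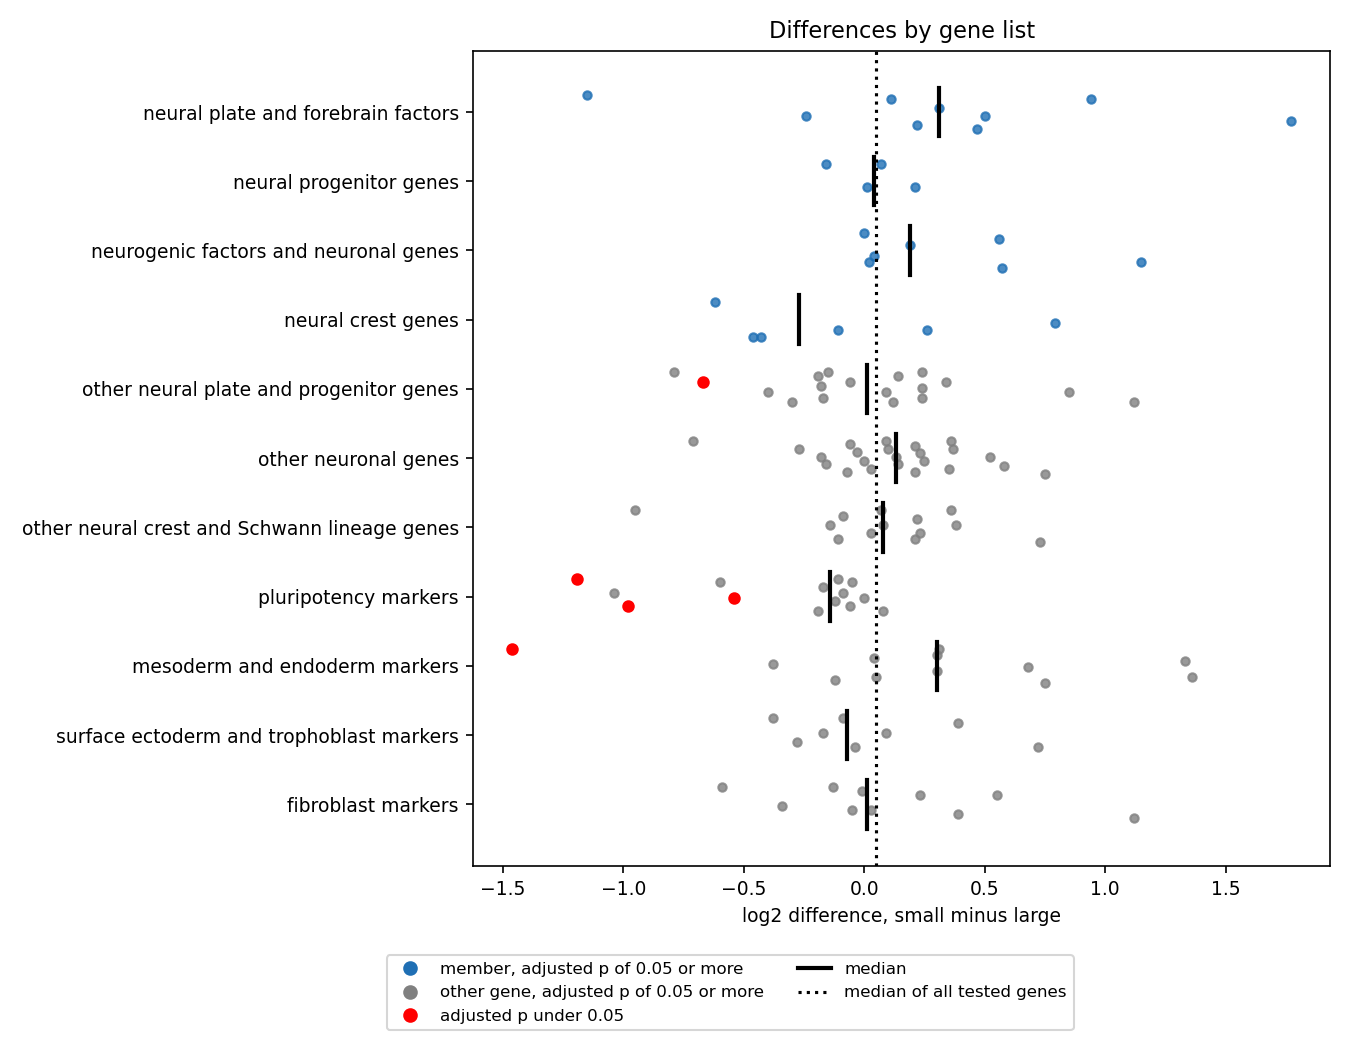
Log2 difference, small minus large, of each tested gene in the member groups (blue) and in the other lists (grey, red where adjusted p was under 0.05), with the list median as a black bar. The dotted line is the median of all tested genes at 0.05; no member is red, and the red points are PROM1, 3 pluripotency markers and KDR.

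Markers of other cells that the sorts could hold were read on the same arrays. Of 14 tested pluripotency markers 3 were lower and 0 higher, the surface proteins PODXL, CDH1 and EPCAM, with a list median of -0.14. The summed normalized level of all 14 markers ran from 25160 to 28020 on small arrays, against 29990 to 34640 on large arrays. That sum includes the 3 genes that passed on these same arrays, so nothing is read from its separation about the other markers. POU5F1 and TDGF1, also listed, were not tested. Of 12 mesoderm and endoderm markers 1, the VEGF receptor KDR at -1.46 ± 0.29, was lower. The list median was 0.30, with 9 above 0 and 3 below, so a lean above 0 was not particular to the members. Summed levels of this list were 556.5 to 1039 on small arrays against 646.8 to 1361 on large arrays. None of 8 surface ectoderm and trophoblast markers or of 10 fibroblast markers passed, with list medians of -0.07 and 0.01. Summed levels were 4181 to 4914 on small arrays against 3194 to 4568 on large arrays for ectoderm and trophoblast genes, and 4465 to 5538 on small arrays against 2985 to 6154 on large arrays for fibroblast genes. The feeders were mouse cells read with human probes, and the part of other cells in the members' differences was not tested.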

How the data were processed

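The authors deposited 1 linear intensity per probe set and array, without a stated background correction or scaling; per the series' design text, Rosetta Resolver 7.1 received the scans. Genes were named from GEO's platform annotation, with symbols updated by gene ID, and probe sets with several symbols were not used. Before log2, 1.814 was added to every value (their 10th percentile), which understates changes of dim genes. Quantile normalization left out 62 control probe sets. Each gene was represented by its tested probe set with the highest mean. Small and large arrays were compared in limma 3.58.1 (R 4.3.3; variance trend, two-sided, Benjamini-Hochberg over all genes or probe sets, threshold 0.05), a procedure tested on simulated data. The number of arrays limits the precision; the median standard error over genes was 0.24. Groups and replicate numbers came from the sample titles. The members and gene lists were chosen with earlier results of these data known. Array values are given for the 8 largest differences, members without overlap, members with 1 array apart, PAX6, and others that a sentence turns on; of the other lists, genes that passed and the 3 smallest p are named, as far as they bear on the members. Alternatives changed 1 choice at a time among scaling, pseudocount, filter, replicate block, array weights, variance model, probe set rule and threshold, and left out each array.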

Additional observations from a re-analysis of the deposited data

Results flagged for a closer look

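For 5 of 52 groups of 4 values, 2 for each of the 26 tested members, 1 array stood apart from the other 3 by Dixon's criterion (the gap to the nearest array over the range, at its 95% critical value), where chance gives about 1 in 20. SOX1 had a ratio of 0.914 in large cells, with large replicate 1 at 2.57 and the others at 4.74 to 4.94. SOX3 had a ratio of 0.93 in small cells, with small replicate 3 at 7.76 and the others at 7.20 to 7.24. HES5 had a ratio of 0.909 in small cells, with small replicate 4 at 3.44 and the others at 4.62 to 4.74. FABP7 had a ratio of 0.906 in large cells, with large replicate 2 at 6.35 and the others at 5.88 to 5.93. ELAVL4 had a ratio of 0.854 in small cells, with small replicate 3 at 2.27 and the others at 4.11 to 4.42. The PAX6 value of large replicate 1 did not reach the critical value.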

How the results depend on the processing

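The median difference over the 26 members was 0.15. Over the members tested in each alternative it ran from 0.03 on the deposited scaling to 0.19 with a pseudocount of 1. With 1 array left out it ran from 0.07 to 0.27. The spread of the member median between replicates, 0.20, was larger than the median difference itself, so it cannot show whether that difference was stable. The median difference stayed above 0 in every setting, and 15 members kept their sign throughout. The count of members that passed, 0, was 2 with the replicate block (EDNRB at -0.62, adjusted p = 0.0141, and PAX6 at 1.77, adjusted p = 0.0306, in limma), 1 with array weights (PAX6), and 1 each when _x_at and _s_at probe sets were dropped and with the mean of probe sets (EDNRB), and ran from 0 to 1 with 1 array left out, 1 being PAX6 without large replicate 1. Member probe sets that passed, 0, were 1 with a filter at the 60th percentile, 4 with the replicate block, 3 with array weights and 2 at a threshold of 0.1, and 0 to 1 with 1 array left out. Genes passing among all tested, 293, ranged from 0 (deposited scaling, median centring, no variance trend) to 824 (array weights), with 753 under the replicate block and 62 to 553 with 1 array left out. The deviations of equally numbered arrays correlated at 0.11, 0.13, 0.23 and 0.01. Replicates 1 to 3 correlated best with their own number and small replicate 4 better with large replicate 2 (0.05), which is a hint of pairing from the data for 3 of 4 numbers. No label ties a number to a shared culture or day, so the numbers were not taken as pairs, and pairing is not excluded. Members without overlap, 3, numbered 1 with median centring, 1 unnormalized and 1 under 75th percentile scaling, where 6.76%, 1.3% and 10.2% of all genes had none. With 1 array left out they numbered 3 to 6, 6 being without large replicate 1, where the share of all genes was 17.7%. Differences that turned sign were, on the deposited scaling, HESX1 -0.01, HES5 -0.12, FABP7 -0.09, ELAVL4 -0.11, NCAM1 -0.14 and MAP2 -0.11. With a pseudocount of 16 they were ELAVL4 -0.02 and MAP2 -0.01, with array weights SOX1 -0.09, DLK1 0.11 and TFAP2A 0.09, and with the mean of probe sets NCAM1 -0.09. With 1 array left out, differences ran from -0.36 to 0.44 for SOX1, -0.12 to 0.28 for HESX1, -0.12 to 0.32 for HES5, 0.00 to 0.19 for FABP7, -0.35 to 0.04 for DLK1, -0.10 to 0.89 for ELAVL3, -0.53 to 0.51 for ELAVL4, -0.05 to 0.14 for NCAM1, -0.22 to 0.26 for MAP2, -0.10 to 0.69 for SOX10 and -0.29 to 0.11 for TFAP2A. The cause of these changes was not tested. Precision is limited by 4 arrays per group and, near the cut for testing, by signal close to background.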

Other observations

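Among the probe sets below the cut for testing, 1 of the 3 for ZIC1, a zinc-finger factor of dorsal neural tube and crest border, separated the fractions. It was at 2.41, 2.98, 1.99 and 1.66 on small arrays, against 3.83, 3.86, 3.55 and 3.33 on large arrays, a difference of -1.38. Of that probe set 0 small and 2 large values were above the cut, so its signal was close to background. With no filter, 4 of 36 members were without overlap, ZIC1 among them, beside 8.26% of all genes. The other ZIC1 probe sets overlapped, at -0.74 and -0.54. For TFAP2B, the AP-2 factor of crest-derived tissue, 1 of 3 probe sets was at 4.38, 3.76, 3.81 and 4.09 on small arrays, against 3.43, 3.44, 3.91 and 2.14 on large arrays. These genes were chosen after their values were seen, and none of the values was tested.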
